A study of Mus musculus with 7 samples.

Results

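Krueppel-like factors (KLFs) were followed across the 7 RNA-seq libraries of mouse embryonic fibroblasts (MEFs) exposed to environmental stress. The 10 genes Klf2, Klf3, Klf4, Klf5, Klf6, Klf7, Klf9, Klf10, Klf13 and Klf15 were taken by symbol from the 49382 genes in the table. The rule sets no threshold on their values, but the family was picked with earlier results of these data known. The cells were wild type primary fibroblasts of mouse embryos taken between embryonic day 13.5 and 14.4, freed of head and fetal liver and used between passages 3 and 7. After overnight culture, cells were left untreated (control) or were deprived of glucose, deprived of glutamine, kept at 0.1% oxygen (hypoxia) or given 1 μM thapsigargin (ER stress), each for 10 hours. Oxidative stress (10 μM sodium arsenite, NaAsO2) and osmotic stress (100 mM NaCl) lasted 3 hours. Thapsigargin blocks the calcium pump of the ER, and arsenite binds cellular thiols. The labels give no time for the control, so a 3-hour treatment was set against the same library as a 10-hour one, and duration cannot be told apart from the kind of stress. All 6 comparisons share the 1 control library. Each condition is 1 library, so no difference below could be set against a replicate spread, no test was made, and counting error is unknown because TPM (transcript abundance scaled to the same total in every library) keeps no read depth.

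KLFs are transcription factors with 3 zinc fingers at the C terminus that bind GC-rich and CACCC-type DNA, while the rest of each protein differs and recruits coactivators or corepressors. Klf2, Klf4, Klf5, Klf6 and Klf7 act mainly as activators, Klf3 is a repressor that recruits CtBP, and Klf9, Klf10 and Klf13 bind the Sin3 corepressor. Several of them, Klf2, Klf4, Klf6 and Klf10 among them, are known as rapidly induced genes with short-lived mRNAs, and in fibroblasts the family is tied to the exit from and return to the cell cycle.

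All 10 genes passed the expression filter, which asked for a 7-library mean of 2 TPM or more and kept 12909 genes. Klf15, at a mean of 2.76 TPM, passed it only through ER stress (15.2 TPM) and had at most 1.40 TPM elsewhere. Its call in ER stress is thus not independent of the filter. A change is given as log2(TPM + 1) of a condition minus that of the control, and a gene past 2-fold on this scale is called higher or lower. The scale understates changes of genes near 1 TPM, which concerns Klf15. The median of all genes kept was -0.16 and -0.12 in the 3-hour libraries (oxidative and osmotic stress) and nearer to 0 in the 10-hour ones. Known response genes differed from the control in the library of each treatment, with Hmox1 at 6055 TPM in oxidative stress against 266.5 in the control, Akr1b3 at 575 in osmotic stress against 90.5, Hspa5 at 12611 in ER stress against 1165 and Bnip3 at 797 in hypoxia against 26.7. Txnip stood at 16.1 TPM in glucose depletion against 70.7, and Chac1 at 86.8 in glutamine depletion against 26.2. Hmox1, Txnip and Chac1 were not particular to these libraries. In ER stress Hmox1 had 1802 TPM and Chac1 had 224 TPM, and Txnip had 7.22 TPM in osmotic stress. Markers of the cell type fitted the label, since the 8 fibroblast markers summed to between 6160 and 12781 TPM. All 6 endothelial markers together came to between 4.09 and 9.07 TPM. Kdr was the highest of them at 1.92 to 4.23 TPM, and Tek and Emcn reached 1.94 and 1.76 TPM. Pecam1, Cdh5 and Tie1 stood at no more than 1.02, 0.288 and 0.181 TPM. Summed levels were 6.76 to 14.6 TPM for 6 macrophage markers, 4.04 to 11.998 TPM for 6 epithelial markers and 0.102 to 0.793 TPM for 4 erythroid markers. The 5 smooth muscle markers summed to 3498 to 8123 TPM, so these sums do not tell fibroblasts from smooth muscle. In bulk RNA, fewer cells of a type and less RNA per cell cannot be told apart.

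TPM is scaled by transcript length, so levels of the members can be ordered within a library. Klf6, a widely expressed activator, stood highest in every library, with 112 TPM in the control and 28.2% to 47.9% of the summed TPM of the 10 genes. In the control it was followed by Klf4 (58.6 TPM), Klf3 (53.9), Klf9 (41.4), Klf2 (24.96), Klf10 (21.8), Klf13 (16.1), Klf7 (9.49), Klf5 (8.41) and Klf15 (1.40). The order was the same in hypoxia. Klf2 ranked at place 5 in the control and at place 9 in oxidative and osmotic stress, while Klf5 ranked at place 9 in the control and at place 5 in osmotic stress. Without replicates, neighbours in this order such as Klf4 and Klf3, or Klf7 and Klf5, cannot be separated. The 10 genes together had 348 TPM in the control, 330 in hypoxia and 306 in glucose depletion, against 456 in oxidative stress, 459 in osmotic stress, 495 in ER stress and 547 in glutamine depletion.

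**Figure D1:**
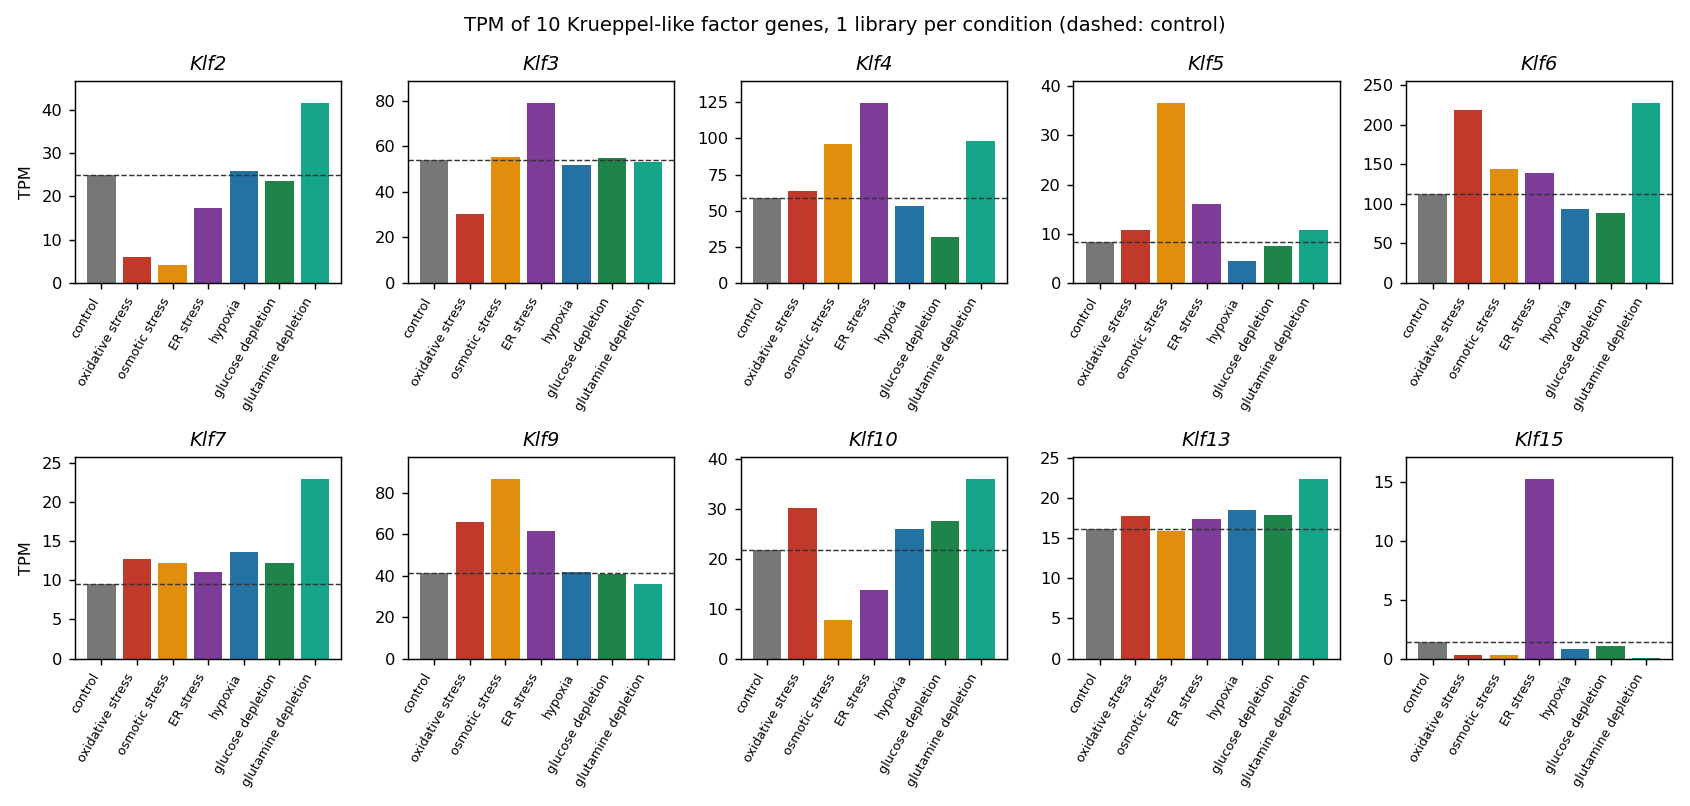
Each panel plots 1 gene, with its TPM (vertical axis from 0, own scale) in the control and the 6 stress libraries, 1 bar per library and a dashed line at the control. Klf15 stands at 15.2 TPM in ER stress and at no more than 1.40 TPM elsewhere, Klf5 is highest in osmotic stress at 36.5 TPM, and Klf2 stands at 5.99 and 4.14 TPM in oxidative and osmotic stress.

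Across the 60 pairs of a member and a condition, 6 were higher and 4 were lower than the control by more than 2-fold. Of the 10 genes, 8 were past 2-fold in at least 1 condition. The share of all genes kept past 2-fold in at least 1 condition was not computed. These pooled counts thus have no background share and cannot be read as a trait of the family. Osmotic stress held the most calls, with Klf5 and Klf9 higher (3.08% of all genes kept were higher) and Klf2 and Klf10 lower (8.76% were lower). In ER stress Klf4 and Klf15 were higher, where 8.60% of genes were, and no member was lower, where 11.0% of genes were. Klf15 had passed the filter only through that library. Glutamine depletion had Klf6 and Klf7 higher and Klf15 lower, with 3.21% of genes called in each direction. In oxidative stress Klf2 was lower, as were 4.85% of genes, and no member was higher, against 3.94% of genes. No member passed 2-fold in hypoxia, where 3.57% of genes were higher and 2.64% lower, nor in glucose depletion, where 1.83% were higher and 2.41% lower. With 10 members, 1 gene is 10% of the list, and none of these counts was tested against its background share.

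**Figure D2:**
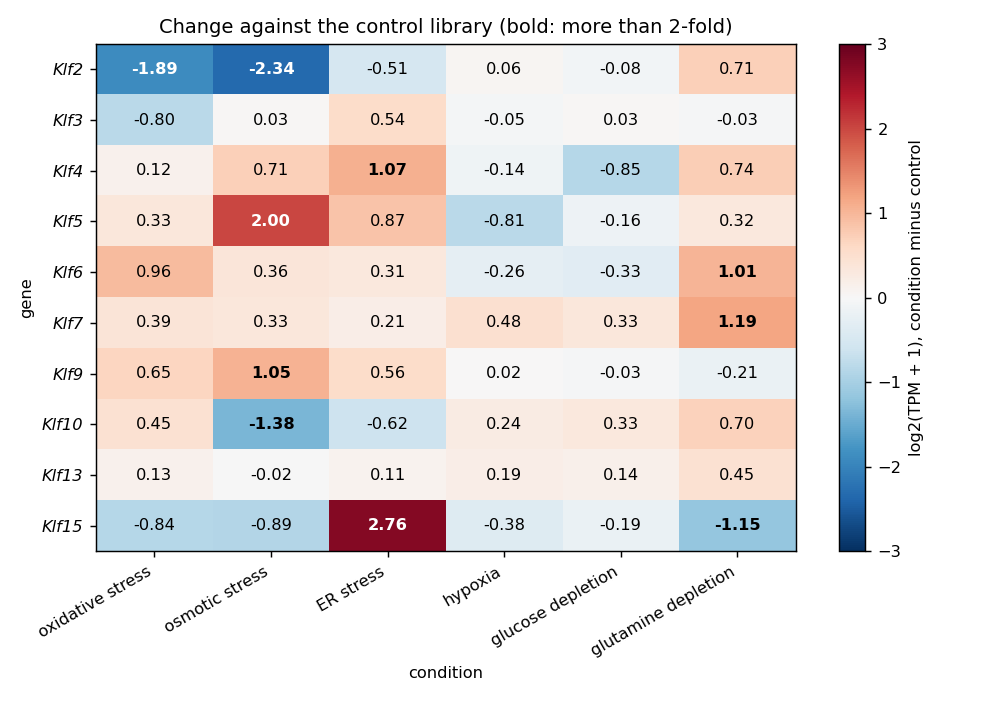
The heatmap shows log2(TPM + 1) of each condition minus the control for the 10 genes (rows) in the 6 conditions (columns), with red for higher and blue for lower, and bold for changes of more than 2-fold. The 10 bold cells include Klf15 in ER stress (2.76) and Klf2 in osmotic stress (-2.34), and none lies in hypoxia or glucose depletion.

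Klf2, known for holding endothelial cells and T cells in a quiescent state, had 24.96 TPM in the control, 5.99 under oxidative stress, 4.14 under osmotic stress, 17.2 in ER stress, 26.0 in hypoxia, 23.5 in glucose depletion and 41.5 in glutamine depletion. Both 3-hour libraries were thus far below the control and below every 10-hour library. Its log2 change was -1.89 in oxidative stress, where 1.33% of all genes kept lay lower still, and -2.34 in osmotic stress, where 1.37% did. In glutamine depletion it was 0.71, within 2-fold. The 6 endothelial markers summed to 6.68 TPM for the control, 5.24 for oxidative and 9.07 for osmotic stress, and their part in the values of Klf2 was not tested. Klf2 is a compact gene of 2624 bases with 3 exons on chromosome 8 (72319033 to 72321656, plus strand, GRCm38).

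The RefSeq promoter of Klf2 is printed because Klf2 was, with Klf15, the member past 2-fold in the most conditions (2 conditions each). It spans chr8:72318812-72319111 on the plus strand of GRCm38.p6, from 250 bases before to 50 bases after the start, and capitals mark the MEF2 site and the 2 GC boxes (GGGCGG).
Klf2: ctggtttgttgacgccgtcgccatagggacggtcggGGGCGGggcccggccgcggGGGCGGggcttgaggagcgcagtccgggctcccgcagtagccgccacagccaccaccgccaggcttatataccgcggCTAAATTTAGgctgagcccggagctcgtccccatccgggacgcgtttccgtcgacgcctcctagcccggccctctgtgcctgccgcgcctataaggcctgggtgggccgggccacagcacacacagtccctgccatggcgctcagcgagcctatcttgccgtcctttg
MEF2 factors act downstream of the kinase ERK5 and are known inducers of Klf2 and Klf4. The MEF2 site begins 118 bases before the start, and a match is found in 3.19% of the 32851 promoters of the table and in 1.52% of the 11608 promoters of genes kept. None of the other 7 members with a promoter in the table had one. GC boxes were found in 64.2% of the promoters of genes kept. The mRNAs of this axis, Map3k3, Map2k5, Mapk7 (ERK5), Mef2a, Mef2c and Mef2d, stayed within 2-fold in both 3-hour libraries, at log2 changes from -0.81 (Mef2c) to 0.74 (Mef2a) in oxidative stress and from -0.50 (Mapk7) to 0.77 (Mef2a) in osmotic stress. The only call among the 6 was Mef2c in ER stress, with 7.67 TPM for the control and 1.12 TPM there (log2 change -2.03).

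Klf4, a reprogramming factor that also restrains proliferation in epithelia and smooth muscle, had 58.6 TPM in the control, 63.7 under oxidative stress, 96.5 in osmotic stress, 124 in ER stress, 53.2 in hypoxia, 32.0 in glucose depletion and 98.2 in glutamine depletion. The ER stress library was the highest, and glucose depletion was the lowest and below the control. The log2 change was 1.07 in ER stress, where 7.51% of genes lay higher still, and -0.85 in glucose depletion. The latter stayed within 2-fold, although 3.15% of genes lay lower still in that library. Smooth muscle markers summed to 3498 TPM in ER stress and 6527 TPM in the control, and their part in the value of Klf4 was not tested. Klf4 lies on chromosome 4 (55527143 to 55532466, minus strand).

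Klf5, which promotes proliferation in epithelia and in activated smooth muscle, had 8.41 TPM in the control, 10.8 under oxidative stress, 36.5 in osmotic stress, 16.1 in ER stress, 4.37 in hypoxia, 7.42 in glucose depletion and 10.7 in glutamine depletion. Osmotic stress stood alone, at 4.34 times the control TPM and well above ER stress, the next library. Its log2 change there was 2.00, and 1.37% of genes lay higher still. Hypoxia was lowest, with a change of -0.81 that stayed within 2-fold, and ER stress had 0.87. Epithelial markers, mostly Krt18 (5.56 of 6.34 TPM in the control), summed to 4.78 TPM in osmotic stress and 11.998 TPM in ER stress, and their part in the values of Klf5 was not tested. Klf5 lies on chromosome 14 (99298691 to 99315036, plus strand).

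For Klf6 the levels were 112 TPM in the control, 219 under oxidative stress, 144 in osmotic stress, 140 in ER stress, 93.6 in hypoxia, 88.9 in glucose depletion and 227 in glutamine depletion. Glutamine depletion and oxidative stress formed the top, yet only the former passed 2-fold, at 1.01 against 0.96. These were the values nearest to the threshold on either side, and they differ by 0.05 log2 units, which cannot be read as a difference between the treatments. Klf6 lies on chromosome 13 (5861482 to 5870394, plus strand).

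Klf7, the closest relative of Klf6 and best known from neurons, had 9.49 TPM in the control and 22.9 TPM under glutamine depletion. The other libraries ran from 11.1 TPM in ER stress to 13.6 TPM in hypoxia, so the control was the lowest of all 7 libraries. The log2 change in glutamine depletion was 1.19, with 2.42% of genes lying higher still. Measured from the median of the 7 libraries in place of the control, it was 0.85. Klf7 lies on chromosome 1 (64029447 to 64122282, minus strand).

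Klf3, the CtBP-recruiting repressor, passed 2-fold in no condition. It had 53.9 TPM in the control, 30.5 under oxidative stress, 55.2 in osmotic stress, 78.9 in ER stress, 52.0 in hypoxia, 55.0 in glucose depletion and 52.9 in glutamine depletion. Oxidative stress was low (log2 change -0.80, with 8.30% of genes lying lower still) and ER stress high (0.54), while the other 4 conditions lay between -0.05 and 0.03. The noncoding gene Gm20033 overlaps an exon of Klf3 (chromosome 5, 64803388 to 64832901) on the opposite strand, and it reached at most 1.66 TPM. Of the corepressors, Ctbp2 was higher in ER stress (45.9 TPM in the control and 136 TPM there, log2 change 1.55) and Ctbp1 stayed between -0.25 and 0.19.

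Klf9, a target of the glucocorticoid and thyroid hormone receptors, had 41.4 TPM in the control, 65.7 under oxidative stress, 86.5 in osmotic stress, 61.5 in ER stress, 41.9 in hypoxia, 40.6 in glucose depletion and 35.7 in glutamine depletion. Hypoxia and glucose depletion were at the control level, and osmotic stress was the highest. Its log2 change in osmotic stress was 1.05, close to the threshold, and 2.93% of genes lay higher still. Of the 6 kept genes of the glucocorticoid list, Dusp1 (1.96) and Sgk1 (1.00) were higher and Fkbp5 (-1.05) was lower in osmotic stress, and Tsc22d3 and Per1 had -0.86 and -0.93. In ER stress Fkbp5 (-1.15) and Sgk1 (-1.34) were lower, and in oxidative stress Dusp1 (1.84) was higher. The receptor gene Nr3c1 stayed between -0.58 and 0.17. Klf9 lies on chromosome 19 (23141226 to 23168134, plus strand).

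Klf10, induced by TGF-beta and also under clock control, had 21.8 TPM in the control, 30.2 under oxidative stress, 7.75 in osmotic stress, 13.8 in ER stress, 26.0 in hypoxia, 27.5 in glucose depletion and 35.9 in glutamine depletion. Osmotic stress and ER stress were below the control and the other 4 above it. The log2 change was -1.38 in osmotic stress, with 4.63% of genes lying lower still, and -0.62 in ER stress. In contrast with Klf2, the oxidative stress library did not share the low value (0.45). Among the TGF-beta receptor and Smad genes, Tgfbr2 was lower in ER stress (-1.05) and Smad3 was higher in glutamine depletion (1.09), and none of the 6 passed 2-fold in osmotic stress, where Smad3 had -0.57 and Smad7 had 0.84. Klf10 lies on chromosome 15 (38291463 to 38300706, minus strand).

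Klf13, another Sin3-binding member, varied least. It ran from 15.9 TPM in osmotic stress to 22.4 TPM in glutamine depletion around 16.1 TPM in the control, and its SD of log2(TPM + 1) over the 7 libraries was 0.144. Of all genes kept, 7.50% varied as little or less, and the same share was 93.2% for Klf2, whose SD was 1.03. Klf13 lies on chromosome 7 (63886351 to 63938915, minus strand).

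Klf15, a glucocorticoid-induced regulator of amino acid breakdown and gluconeogenesis, had 1.40 TPM in the control, 0.336 under oxidative stress, 0.294 in osmotic stress, 15.2 in ER stress, 0.842 in hypoxia, 1.10 in glucose depletion and 0.0778 in glutamine depletion. It was the least abundant member in every library but that of ER stress, where it exceeded Klf10 and Klf7. There its TPM was 10.9 times that of the control and its log2 change was 2.76, with 1.56% of genes lying higher still. This rank is among genes that passed the filter, which Klf15 did only through ER stress, so it is not independent support. In that library the fibroblast markers summed to 6160 TPM against 11389 in the control, and their part in the value of Klf15 was not tested. The change in glutamine depletion was -1.15, but all values outside ER stress were near or below the pseudocount of 1 TPM and at an unknown depth, and with pseudocounts of 0.1 and 5 TPM it was -3.08 and -0.33. In ER stress the same pseudocounts gave 3.36 and 1.66. Klf15 lies on chromosome 6 (90462576 to 90475238, plus strand).

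The promoter of Klf15, chr6:90462326-90462625 on the plus strand of GRCm38.p6 from RefSeq, is shown since Klf15 had the largest change of the family. Capitals mark the 3 E-boxes (CACGTG) and the CCAAT box.
Klf15: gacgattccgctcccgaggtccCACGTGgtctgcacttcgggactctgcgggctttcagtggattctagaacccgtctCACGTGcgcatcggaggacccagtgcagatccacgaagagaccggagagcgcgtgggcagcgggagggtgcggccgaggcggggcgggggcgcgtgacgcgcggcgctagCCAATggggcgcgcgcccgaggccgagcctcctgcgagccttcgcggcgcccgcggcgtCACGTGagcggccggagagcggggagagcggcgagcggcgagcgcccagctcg
The E-boxes begin 228, 172 and 3 bases before the start and the CCAAT box 62 bases before it. At least 1 E-box was present in 10.2% of the promoters of genes kept, in 7.15% of all promoters, and in those of Klf4 and Klf6 (1 each). A CCAAT box was present in 38.0% of promoters of genes kept and also in those of Klf6, Klf9 and Klf13. The hypoxia response element core (ACGTG), which lies inside each of these E-boxes on both strands, was found in 25.7%, and Klf15 in hypoxia was at 0.842 TPM. A TGACG and an antioxidant response element core (TGACNNNGC), both on the other strand, overlap the E-box nearest the start. Motifs were searched on both strands and are matches of letters, not shown sites.

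Other motifs were counted in the 8 members with a promoter in the table, which has no entry for Klf5 and Klf10. The short form of the cAMP response element (TGACG) occurred in Klf2, Klf3, Klf4, Klf9, Klf13 and Klf15, against 31.5% of promoters of genes kept. The full element (TGACGTCA) and the CArG box of SRF occurred in none of the 8, at shares of 3.10% and 1.34% of genes kept. The antioxidant response element core was found in Klf3, Klf6 and Klf15, against 14.2%. The GC content of the 8 promoters was 58.3% to 76.7%, beside a median of 61.3% over the promoters of genes kept. Counts of the pentamer ATTTA, a core of the AU-rich elements that mark unstable mRNAs, were also taken in the longest annotated 3′ UTR of each gene. They were 18 in Klf7, 8 in Klf9, 7 in Klf3 and in Klf6, 4 in Klf10, 3 in Klf13, 2 in Klf15 and 1 in each of Klf2, Klf4 and Klf5. These raw counts also depend on length. The 3′ UTR of Klf7 has 6266 bases, beside medians of 1221 bases and 2 ATTTA over genes kept. Per kilobase the members ran from 0.54 in Klf5 to 2.87 in Klf7. Their median per kilobase was 1.86, beside 1.36 over 11230 genes kept.

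The members were next set beside all genes of each library. In glutamine depletion 7 of the 10 were above 0, with a median of 0.57 beside -0.09 over all genes kept. The medians were 0.23 beside -0.16 in oxidative stress, 0.18 beside -0.12 in osmotic stress and 0.43 beside 0.00 in ER stress. In hypoxia and glucose depletion they were -0.02 and -0.05, beside -0.05 and -0.02. The median size of change, regardless of sign, was 0.80 in osmotic stress beside 0.30 over all genes, so the small median there came from members on both sides of 0.

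**Figure D3:**
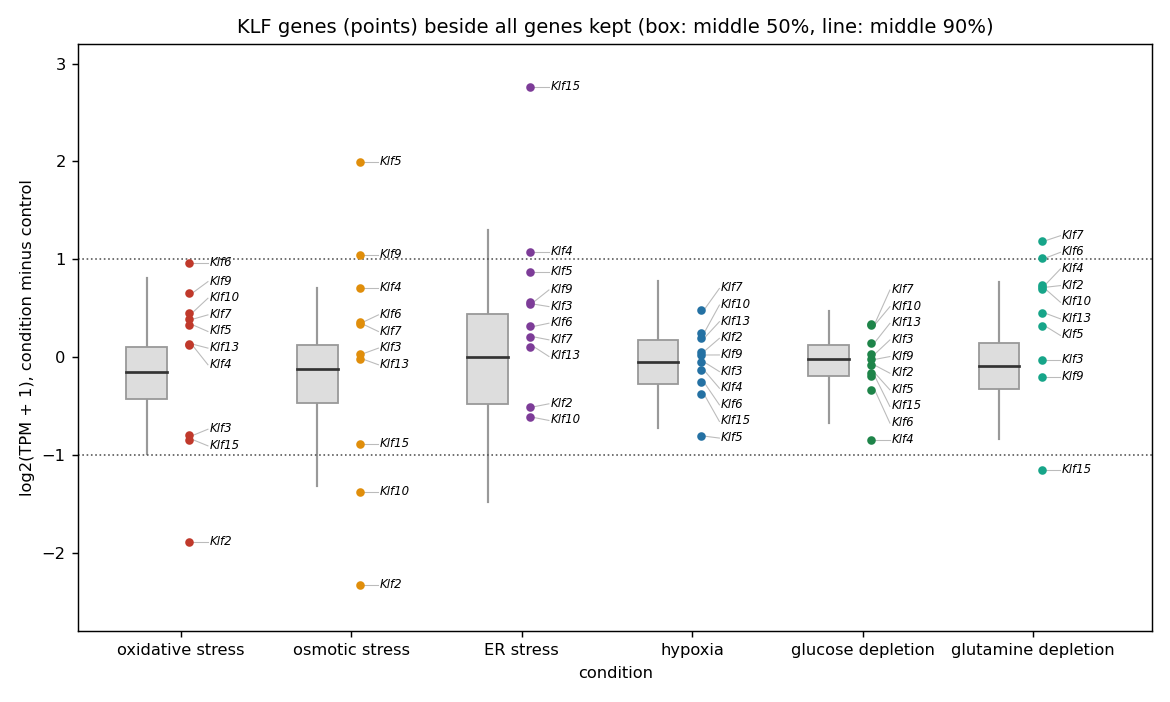
For each condition the grey box and line give the middle 50% and middle 90% of log2 changes over the 12909 genes kept, with the median as a black bar, and the points give the 10 KLF genes on the same vertical axis (log2(TPM + 1), condition minus control). Dotted lines mark 2-fold. Klf5 and Klf9 lie above and Klf10 and Klf2 below the middle 90% in osmotic stress. Klf4 lies at its upper edge there (0.710 against 0.709). In hypoxia only Klf5 lies outside the middle 90%, and in glucose depletion only Klf4 does (-0.85 against -0.67).

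Genes known for rapid induction were counted beside the KLFs. Of 10 immediate-early genes, 8 were higher by more than 2-fold in oxidative stress (median 1.63), led by Atf3 (4.47), Egr2 (2.60), Ier3 (1.96) and Fosb (1.94). In glutamine depletion 7 were higher (median 1.43), with Egr2 at 3.40, Atf3 at 2.47, Egr3 at 1.81 and Egr1 at 1.58. In osmotic stress 5 were higher (median 1.10), led by Ier3 (2.69), Dusp1 (1.96), Fosb (1.86) and Atf3 (1.82). ER stress had Atf3 (4.81) and Ier2 (1.11) higher and Egr3 (-1.25) lower, hypoxia had Ier3 (1.66) higher, and glucose depletion had Egr2 (1.29) and Egr3 (1.09) higher. None of the 6 genes for SRF and its cofactors passed 2-fold, and Srf itself was highest in glutamine depletion (0.81).

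Genes for proteins that act with or on KLFs had few changes past 2-fold. Of 10 cofactor genes, the calls were Ctbp2 higher and Kat2b lower (-1.66), both in ER stress. Of 7 ubiquitin ligase genes, Vhl was lower in osmotic stress (24.9 to 10.5 TPM, -1.17), Fbxo32 was lower in ER stress (-1.33) and Fbxw7 was higher in hypoxia (10.8 to 24.1 TPM, 1.09). In osmotic stress the median of the 7 was -0.75, beside -0.12 for all genes. Of 9 kept genes described as KLF targets, ER stress had Lgals3 (520 to 1146 TPM, 1.14), a gene repressed by Klf3, and Bcat2 (30.3 to 75.5 TPM, 1.29), a gene of branched-chain amino acid breakdown downstream of Klf15, and glutamine depletion had S1pr1 (11.2 to 26.6 TPM, 1.18), a target of Klf2. Cdkn1a and Ccnd1, targets in the cell cycle, stayed within 2-fold in all 6 conditions, at -0.13 to 0.40 and -0.78 to -0.06. In oxidative and osmotic stress, where Klf2 was lower, S1pr1 had 0.62 and -0.60, and in ER stress Klf3 itself had 0.54. Whether target genes follow the members was not tested. Nos3 and Prodh were below the filter.

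**Figure D4:**
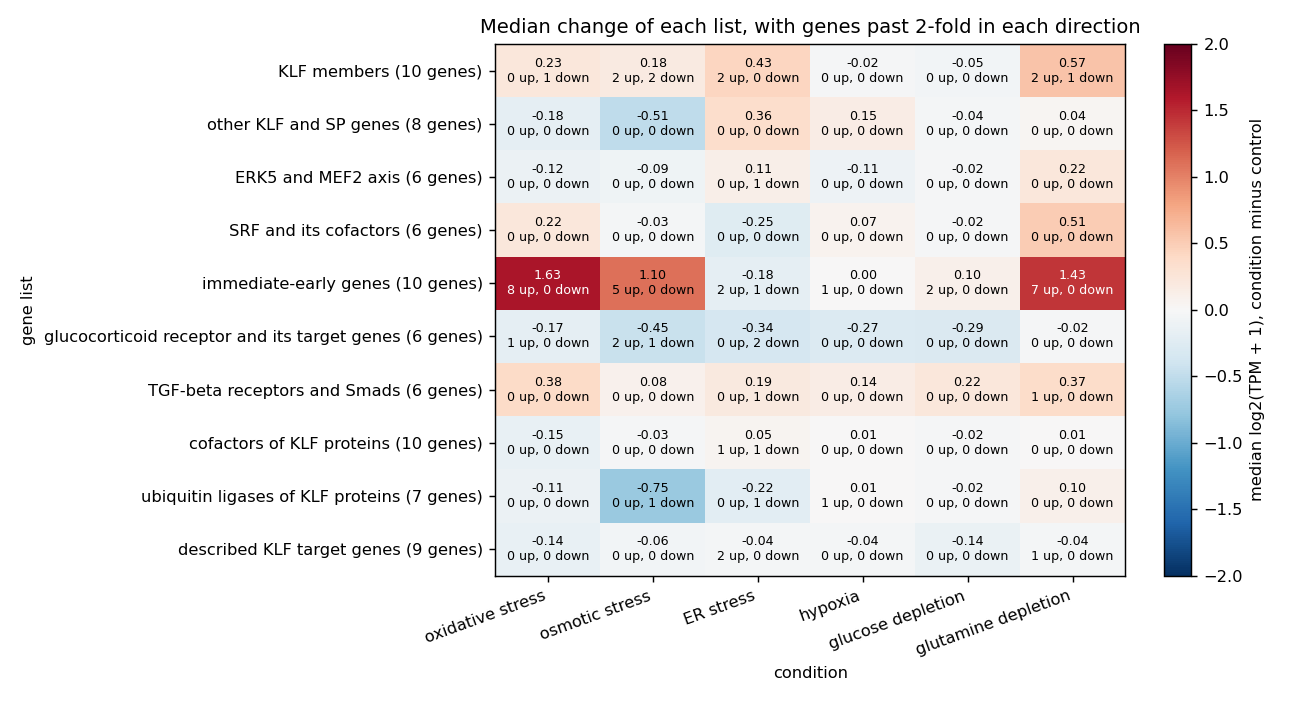
Colour and the upper number of each cell give the median log2(TPM + 1), condition minus control, of the kept genes of a list (rows) in a condition (columns), and the lower line counts genes past 2-fold in each direction. Immediate-early genes reach 1.63 in oxidative stress and 1.43 in glutamine depletion, while the KLF genes reach 0.23 and 0.57.

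Likeness of pattern was measured as the root mean square (RMS) difference of log2(TPM + 1), after removal of each gene's mean, over the 7 libraries, where 0 is an identical pattern. The values describe 7 single libraries searched over 12909 genes, and carry no test. Nearest to Klf2 was Ahr, the aryl hydrocarbon receptor, at an RMS of 0.32, with 13.1 TPM in the control and 5.04 and 3.73 TPM in oxidative and osmotic stress, followed by the pseudogene Gm13245 (0.45) and Rin1 (0.45). Klf15 was nearest to Ccdc134 (0.23), Ormdl2 (0.25) and Hyou1 (0.25), an ER chaperone with 123 TPM in the control against 1140 under ER stress. Klf5 was nearest to Fam107b (0.29), Epha2 (0.32) and Slc38a2 (0.35), an amino acid transporter with 102 TPM in the control against 478 under osmotic stress.

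The other members past 2-fold had the following neighbours. Klf4 was nearest to Spty2d1 (0.24), Slc24a3 (0.26) and Atf4 (0.27), the effector of the integrated stress response, which had 276 TPM in the control and 773 in ER stress. Klf6 was nearest to Pmaip1 (0.14), which encodes the death regulator NOXA, Slc25a25 (0.15) and Arl5b (0.17). Klf10 was nearest to Zfp429 (0.16), Sik1 (0.18) and Plekhf1 (0.21). Klf7 was nearest to Abca1 (0.10), Frmd6 (0.12) and March3 (0.12), and Klf9 to Hypk (0.11), Tnfrsf22 (0.14) and Clk4 (0.14). Among the members themselves, Klf7 and Klf13 were the nearest pair (0.22), and Klf2 and Klf5 the farthest (1.70). The RMS also takes in the size of changes, so genes that vary little lie close to each other. Klf13 and Klf7 had the lowest SDs of the members (0.144 and 0.34), so their nearness need not be a shared pattern.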

How the data were processed

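RNA-seq libraries (stranded mRNA, paired ends) were made from 1 sample per condition. The authors pseudoaligned reads with kallisto 0.43.1 (default settings) to the Ensembl release 90 cDNA set of GRCm38, added up transcript values by gene and deposited TPM, so that each library totals 1000000 over 49382 genes. Whether counting used strand is not given in the sources used here. Samples were matched to conditions by their titles and treatment labels.

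Differences of log2(TPM + 1), condition minus control, were taken from these values. The 2-fold threshold is the one the study's methods give for stress, and the minimum of 2 TPM the one they give for cell density, applied here to the mean. No test was possible with 1 library per condition, and depth is unknown. Members, gene lists and motifs were chosen with earlier results of these data known, and the MEF2 and E-box searches after the promoters were seen. All members were named, with list genes past 2-fold (at most 4 per list and condition) and the 3 genes nearest in pattern to each member past 2-fold. Other genes of these lists named in the text, with values within 2-fold, were chosen after their values were seen. Gene positions and 3′ UTRs came from GENCODE M21 (GRCm38), promoters from RefSeq (GRCm38.p6). Alternatives were other pseudocounts, filters, fold thresholds, centring, removal of mitochondrially encoded genes and another reference. Scripts were tested on simulated data. Calculations used pandas 2.3.3 with numpy 2.4.6 in Python 3.11.15, and plots used matplotlib 3.10.9.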

Additional observations from a re-analysis of the deposited data

How the results depend on the processing

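Of 414 recomputed log2 changes of members under 7 alternatives, 401 kept their side of 2-fold, 5 passed it newly and 8 no longer did. No change that was past 2-fold in the main setting reversed its sign. Among those within 2-fold some did, such as Klf7 in ER stress (0.21, and -0.13 with the median of the 7 libraries as the reference). A filter leaves each log2 change as it is, so the 60 values without one and the 54 at a mean of at least 10 TPM were the same by construction. All 10 members pass the main filter, so without it their counts could not move. With a pseudocount of 0.1 TPM, 2 members (Klf2, Klf15) were lower in oxidative stress (6.79% of all genes kept) and 3 (with Klf10) in osmotic stress (11.3%). With 5 TPM, 1 was higher in osmotic stress (Klf5, 1.90%), and in glutamine depletion 0 were higher (1.93%) and 0 lower (1.42%). A mean of at least 10 TPM removed Klf15. This left 1 higher in ER stress (Klf4, 7.67% of genes with that mean) and 0 lower in glutamine depletion (1.61%). Centring on the median of all genes kept, or removing mitochondrially encoded genes, made 1 member (Klf6) higher in oxidative stress (4.75% and 4.22% of genes). At 1.5-fold, 2 members were higher (7.27% of all genes kept) and 3 lower (16.2%) in oxidative stress, 3 higher (6.56%) and 3 lower (19.5%) in osmotic stress, 3 higher (19.0%) and 1 lower (Klf10, 21.3%) in ER stress, and 5 higher (7.47%) and 1 lower (10.6%) in glutamine depletion. At that threshold 1 was lower in hypoxia (Klf5, 8.10%) and 1 in glucose depletion (Klf4, 6.23%), and none was higher there (7.23% and 3.47%). At 3-fold, 1 was higher (Klf5, 1.65%) and 1 lower (Klf2, 3.37%) in osmotic stress, and 1 was higher in ER stress (Klf15, 3.39%). Klf2 was still lower in oxidative stress (1.60%), and in glutamine depletion 0 were higher (1.61%) and 0 lower (1.27%). With the median of the 7 libraries as the reference, 1 was higher in ER stress (Klf15, 7.78%) and 1 lower in hypoxia (Klf5, 1.495%). In glutamine depletion 0 were higher (2.22%) and 0 lower (1.04%) with that reference. The calls of Klf2 in both 3-hour libraries, and of Klf5 and Klf10 in osmotic stress, held under each of the 7 alternatives that keep the 2-fold threshold. The filter settings among these could not change a call. The causes of these moves beyond the settings themselves were not tested. No paired analysis was possible because each condition has 1 library. Depth is unknown, so the low values of Klf15 have no counting interval.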

Other observations

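The rest of the family, 16 further KLF and SP genes, had no call past 2-fold among the 8 that passed the expression filter. The others had less than 1 TPM in the control, where log2(TPM + 1) cannot fall by more than 2-fold. The SP genes encode GC-box factors with the same 3 fingers. Of the 16, 8 passed the expression filter, and Klf1, Klf14, Klf17, Sp5, Sp6, Sp7, Sp8 and Sp9 did not. In osmotic stress all 8 were below the control, with a median log2 change of -0.51 beside -0.12 over all genes kept, led by Sp1 (28.5 to 14.4 TPM, -0.94), Klf11 (-0.61) and Sp3 (46.3 to 30.8 TPM, -0.57). In ER stress 7 of the 8 were above it, with a median of 0.36 beside 0.00, led by Klf11 (2.77 to 5.94 TPM, 0.88), a relative of Klf10. Klf16 had -0.61 in oxidative stress, -0.63 in hypoxia and 0.58 in ER stress. In glucose depletion the 8 had a median of -0.04, beside -0.02 over all genes kept.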
